A study of Homo sapiens with 9 samples.

Results

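AP-1 is a family of transcription factors, and 10 of its genes were followed here through 9 brain tumours grown from 1 human glioblastoma line. The genes were FOS, FOSB, FOSL1 and FOSL2 (the FOS family), JUN, JUNB and JUND (the JUN family), and ATF2, ATF3 and JDP2 (the ATF and JDP branch). They were taken by gene symbol from a deposited table of 18364 genes, and all 10 were present. The tumours grew in nude mice after intracranial injection of LN229, an established human glioblastoma cell line, and were taken at the terminal stage. In 6 tumours the injected cells were LN229-4SA, with the genotype TAZ-4SA, and in 3 they were LN229-EV, which carry an empty vector (EV). TAZ-4SA is a form of the co-activator TAZ in which serines phosphorylated by the LATS kinases of the Hippo pathway are changed to alanine. The sources used here do not give the promoter that drives it, the number of clones, the age of the mice or the animal behind each tumour. The p-values therefore measure the spread between these samples. The comparison addressed how active TAZ changes gene expression in glioblastoma.

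AP-1 proteins bind DNA as pairs held together by leucine zippers. JUN proteins can pair with themselves or with a FOS or ATF partner, whereas FOS proteins need a JUN partner. FOS, FOSB, JUN and JUNB are classical immediate-early genes, switched on within minutes by growth factors or stress through MAP kinases, while FOSL1 and FOSL2 rise later and stay on longer. ATF3 is a stress-induced gene, ATF2 is a constitutively made target of the stress kinases, and JDP2 is best known as a repressor. In carcinoma and glioma cells, AP-1 is known to share enhancers with TEAD, the DNA-binding partner of TAZ, and FOSL1 is known for its link to the mesenchymal state of glioblastoma.

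Values are CPM (reads scaled per library), recovered from the deposited log2 CPM. The scaling was not by total recovered reads alone. In EV 2 and EV 3, with 17425672 and 17314672 recovered reads, 1 read stood for 0.0581 and 0.0645 CPM. Fold changes are on the deposited log2 scale, which includes a prior of 0.145 CPM, and are TAZ-4SA minus EV, with their SE. The test was limma over 15578 genes with Benjamini-Hochberg adjustment, and "called" means an adjusted p under 0.05. TAZ-4SA tumours had 3144861 to 31468135 recovered reads and EV tumours 17314672 to 21576264. The TAZ-4SA libraries stood apart in how many genes were listed at 0 reads, 2990 to 7365 against 505 to 622, and the median log2 fold change of all genes tested was -0.85. WWTR1, which encodes TAZ, lay at 218 to 449 CPM in TAZ-4SA and at 116 to 123 CPM in EV (log2 fold change 1.44 ± 0.26 (SE), limma adjusted p = 0.00242). The counts do not separate the introduced from the native gene. Of the 8 glioblastoma markers, 2 were called higher (EGFR, at a mean of 375 against 10.4 CPM, and CD44) and 1 lower (NES, 158 against 1324 CPM). That is 25 and 12.5 percent, beside 9.02 and 13.3 percent of all genes tested. The groups did not overlap for 2 markers that were higher and 4 that were lower (NES, SOX2, OLIG2 and PTPRZ1), beside 10.8 and 21.3 percent of all genes. The median log2 fold change of the list was -2.35. VIM was at no less than 1479.95 CPM in any tumour, while SOX2 and PTPRZ1 were each listed at 0 in 2 TAZ-4SA tumours and OLIG2 in 3.

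JUN and ATF3 share the same 8 letters just upstream of a start. They are shown with JUND because these were the members whose windows held an exact match to the AP-1 or cyclic AMP letters searched. Elements with other letters were not searched for, so a window without a match may still hold a variant element. The letters TGACGT, the start of the cyclic AMP element, were also in the FOS, FOSB and FOSL2 windows and in a JDP2 window. The FOSL2 window and the second ATF3 window held none of the motifs searched, and FOSL1 and ATF2 had no promoter entry. The motif TGACATCA, the JUN form of the AP-1 element, occurred in 2.37% of all 35116 RefSeq windows of the same length when both strands were searched. JUND held the related palindrome TGACGTCA, the cyclic AMP element bound by ATF and CREB proteins, which occurred in 1.65% of windows. The 250 bases before each start are shown 5′ to 3′ on the gene's strand with the motif in capitals, from RefSeq on GRCh38.p14. They are chr1:58784048-58784297 (minus strand) for JUN, chr1:212565157-212565406 (plus strand), the first of 2 listed starts, for ATF3, and chr19:18281623-18281872 (minus strand) for JUND.

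JUN: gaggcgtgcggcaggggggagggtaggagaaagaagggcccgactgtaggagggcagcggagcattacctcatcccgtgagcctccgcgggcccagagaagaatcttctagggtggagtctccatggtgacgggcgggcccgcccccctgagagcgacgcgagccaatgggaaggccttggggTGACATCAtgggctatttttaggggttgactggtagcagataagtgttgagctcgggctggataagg

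ATF3: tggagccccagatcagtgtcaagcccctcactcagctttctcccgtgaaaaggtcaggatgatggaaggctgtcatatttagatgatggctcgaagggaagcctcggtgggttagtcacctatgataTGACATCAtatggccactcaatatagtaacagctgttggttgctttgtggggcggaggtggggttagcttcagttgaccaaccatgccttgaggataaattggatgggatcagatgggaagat

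JUND: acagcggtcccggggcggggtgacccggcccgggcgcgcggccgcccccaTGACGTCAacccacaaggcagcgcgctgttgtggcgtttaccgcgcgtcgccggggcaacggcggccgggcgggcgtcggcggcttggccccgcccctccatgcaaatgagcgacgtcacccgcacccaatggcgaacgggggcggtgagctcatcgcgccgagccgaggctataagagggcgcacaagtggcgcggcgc

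Counted back from the transcript start, the motif lay at -67 to -60 in JUN, at -123 to -116 in ATF3 and at -200 to -193 in JUND. The canonical element TGACTCA, present in 4.20% of windows, was in no window of the 8 members that matched a promoter entry. The TEAD core GGAATG, present in 11.9% of windows, was found in 1 of the JDP2 windows. These matches describe letters, not binding.

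In TAZ-4SA tumours 5 members were called higher, namely FOSL2, ATF3, FOSL1, JUN and ATF2, and 0 were called lower. Over all genes tested, 9.02 percent were called higher and 13.3 percent lower. In the lower direction, 0 members had an unadjusted limma p under 0.05. Without EV 1, and likewise without EV 2, the members called higher were 3 (FOSL1, FOSL2 and ATF3). The median log2 fold change over the 10 members was 1.34. The TAZ-4SA and EV values did not overlap for 3 members that were higher (FOSL2, ATF2, ATF3) and for 1 that was lower (FOS), beside 10.8 percent and 21.3 percent of all genes. All 10 members passed the filter at a mean of 1 CPM. In bulk tumours, fewer cells making a transcript and less transcript per cell cannot be told apart.

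**Figure D1:**
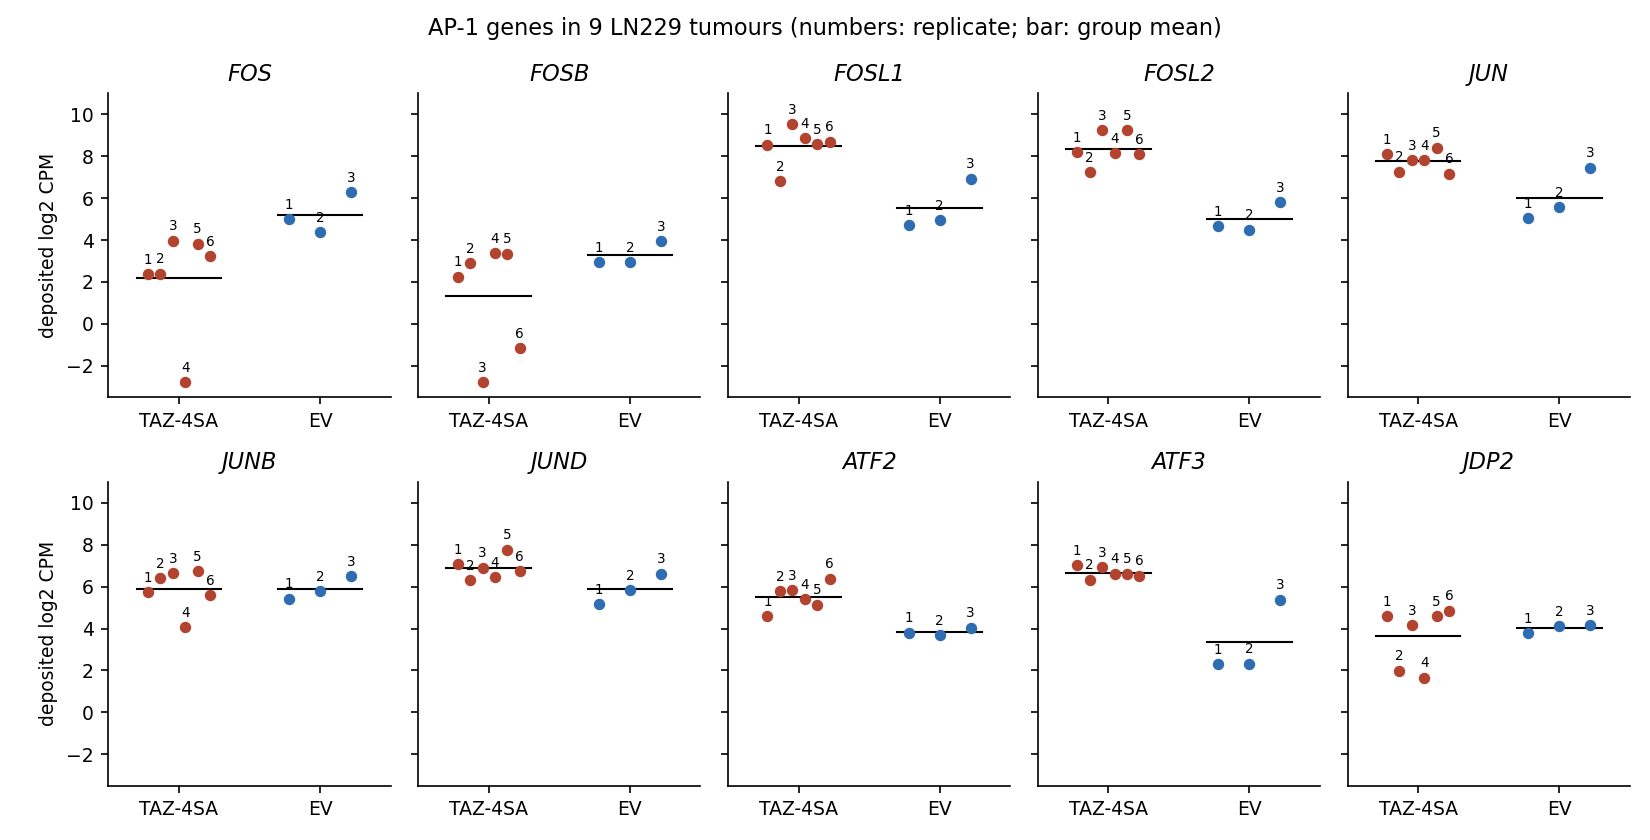
Deposited log2 CPM of each AP-1 gene, 1 panel per gene, with 1 point per tumour, its replicate number above it and a bar at the group mean of the log2 values. FOSL2, ATF2 and ATF3 lie higher in all TAZ-4SA tumours than in any EV tumour, FOS lies lower in all of them, and EV 3 is the highest EV tumour in every panel.

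The FOS family was mixed. FOSL1 and FOSL2, the late members that lack the strong activation domains of FOS and FOSB, were called higher in TAZ-4SA. FOS and FOSB had lower means and were not called. FOSL2 (Entrez 2355, GRCh38 chr2:28392858-28417317, 4 exons) lay between 150 and 606 CPM in TAZ-4SA with a median of 290.4, against 25.0, 22.3 and 56.2 CPM in EV tumours 1, 2 and 3. The lowest TAZ-4SA tumour was above the highest EV tumour. Its mean was 370 ± 190 CPM (SD, n = 6) against 34.5 ± 18.9 (SD, n = 3), a ratio of 10.7, and the log2 fold change was 3.38 ± 0.46 (limma adjusted p = 0.000409). FOSL2 was the member called in all 22 alternative fits, with log2 fold changes of 3.13 to 3.79. The antisense gene FOSL2-AS1 overlaps 1815 bases of it and averaged under 1 CPM in both groups.

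FOSL1 (Entrez 8061, chr11:65892049-65900545, 4 exons) encodes FRA1, the FOS-family protein most studied in mesenchymal tumour cells. It stood at 378, 113, 736, 469, 379 and 414 CPM in TAZ-4SA tumours 1 to 6 and at 26.1, 30.6 and 121 CPM in EV. The groups overlapped at 1 point, because TAZ-4SA tumour 2 lay under EV 3. The means were 415 ± 200 CPM (SD, n = 6) and 59.4 ± 53.8 (SD, n = 3), and the log2 fold change was 2.98 ± 0.58 (limma adjusted p = 0.00336). Without EV 3 it was 3.68.

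FOS (Entrez 2353, chr14:75278828-75282230, 4 exons), the archetypal immediate-early gene, ran the other way. It stood at 5.07, 5.15, 15.5, 0, 14.0 and 9.17 CPM in TAZ-4SA tumours 1 to 6 and at 31.7, 20.5 and 78.1 CPM in EV. Every TAZ-4SA tumour was below every EV tumour, a pattern shared by 21.3 percent of all genes tested. The mean CPM was 5.33 times as high in EV, from 478 reads in all TAZ-4SA tumours together and 2240 in EV. The log2 fold change was -3.05 ± 1.44 with a 95% interval of -6.17 to 0.071, and FOS was not called (limma adjusted p = 0.145). TAZ-4SA tumour 4 had 0 FOS reads although it was the most deeply sequenced, and 6573 genes were listed at 0 in it. Without that tumour the difference was -2.06 (limma adjusted p = 0.0701).

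Some other settings did call FOS lower. They were a pseudocount of 2 CPM (log2 fold change -2.25, limma adjusted p = 0.0457), limma array weights (-2.73, adjusted p = 0.0180) and limma-voom on recovered reads (-4.31, adjusted p = 0.0428). The share of all genes called lower was 16.9, 36.1 and 26.3 percent in these fits. Leaving out the 3 TAZ-4SA tumours with the most genes at 0 (2, 3 and 4) also gave a call (-2.07, limma adjusted p = 0.0486), in a fit with 14.5 percent of genes called lower. Over all 22 alternatives the FOS log2 fold change was negative, from -4.31 to -2.06.

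FOSB (Entrez 2354, chr19:45467996-45475179, 4 exons), a close relative of FOS, was the lowest member per kilobase in both groups. It stood at 4.59, 7.27, 0, 10.3, 10.1 and 0.306 CPM in TAZ-4SA tumours 1 to 6 and at 7.50, 7.62 and 15.3 CPM in EV. TAZ-4SA tumours 3 and 6 held 1 read or fewer, and the other 4 spanned 4.59 to 10.3 CPM, across the lower EV values. The log2 fold change of -1.96 ± 1.59 was not called (limma adjusted p = 0.387), and without TAZ-4SA tumour 3 it was -1.14.

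**Figure D2:**
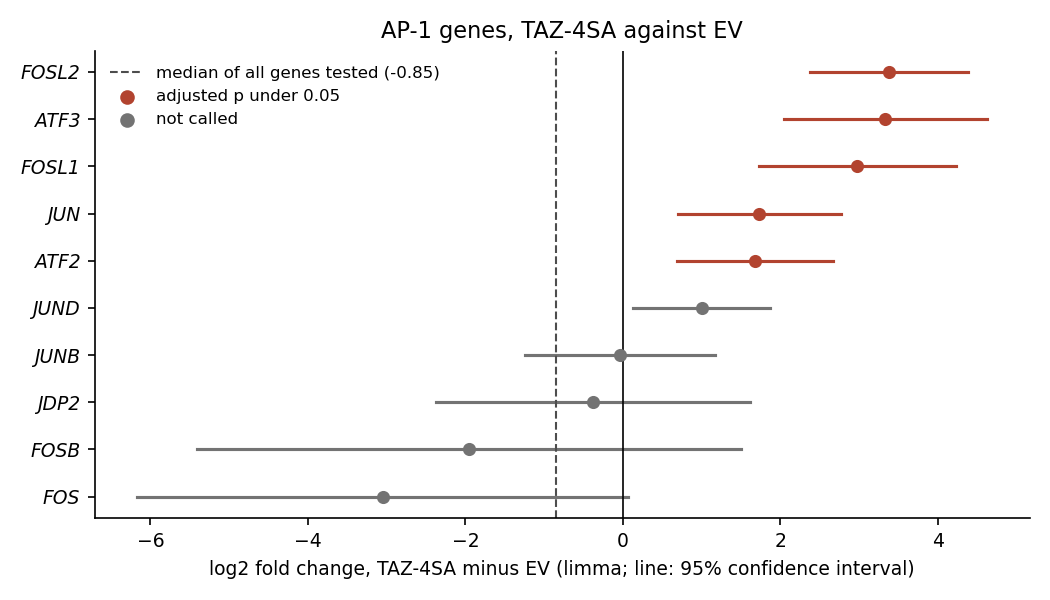
Log2 fold change of each AP-1 gene, TAZ-4SA minus EV, with its 95% confidence interval from limma; red marks an adjusted p under 0.05 and the dashed line the median of all genes tested (-0.85). The 5 called genes lie between 1.68 and 3.38, and the interval of FOS runs from -6.17 to 0.071.

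The make-up of FOS-family transcripts was read within each library, which does not rest on the scaling between libraries. It is given as a description with no test. Shares of 1 sum are tied together, so a rise in FOSL1 and FOSL2 alone lowers the FOS share. With reads divided by the median length of each gene's protein-coding transcripts, FOS made up 48.6 ± 7.56% (SD, n = 3) of FOS-family transcripts in EV and 2.59 ± 1.68% (SD, n = 6) in TAZ-4SA. In EV it ranged from 43.7% to 57.3%, and in TAZ-4SA from 0% to 4.81%. FOSL1 made up 42.2 ± 8.25% in EV and 81.1 ± 6.80% in TAZ-4SA. FOSL2 made up 4.61% to 6.82% over the EV tumours and 11.1% to 23.6% over the TAZ-4SA tumours. FOSB made up 3.21% on average in EV and 0.578% in TAZ-4SA.

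The shares depend on the transcript length that is assumed. With the longest transcript the mean FOS share was 33.0% in EV and 1.36% in TAZ-4SA, and the FOSL1 share 52.9% and 79.4%. With no length scaling the FOS share was 29.7% and 1.08%, the FOSL1 share 37.2% and 51.4%, and the FOSL2 share 25.3% and 46.5%. Under each of the 3 scalings, the FOS share of every TAZ-4SA tumour lay below that of every EV tumour. As a ratio of CPM, FOSL1 to FOS was 0.825, 1.497 and 1.55 in EV tumours 1 to 3. It was 74.5, 21.9, 47.5, 27.1 and 45.1 in TAZ-4SA tumours 1, 2, 3, 5 and 6, and TAZ-4SA tumour 4 had no FOS read to divide by. FOSL2 to FOS was 0.719 to 1.09 in EV and 29.2 to 58.2 in those 5 TAZ-4SA tumours. The FOS-family sum was 798 ± 361 CPM in TAZ-4SA against 147 ± 107 CPM in EV.

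**Figure D3:**
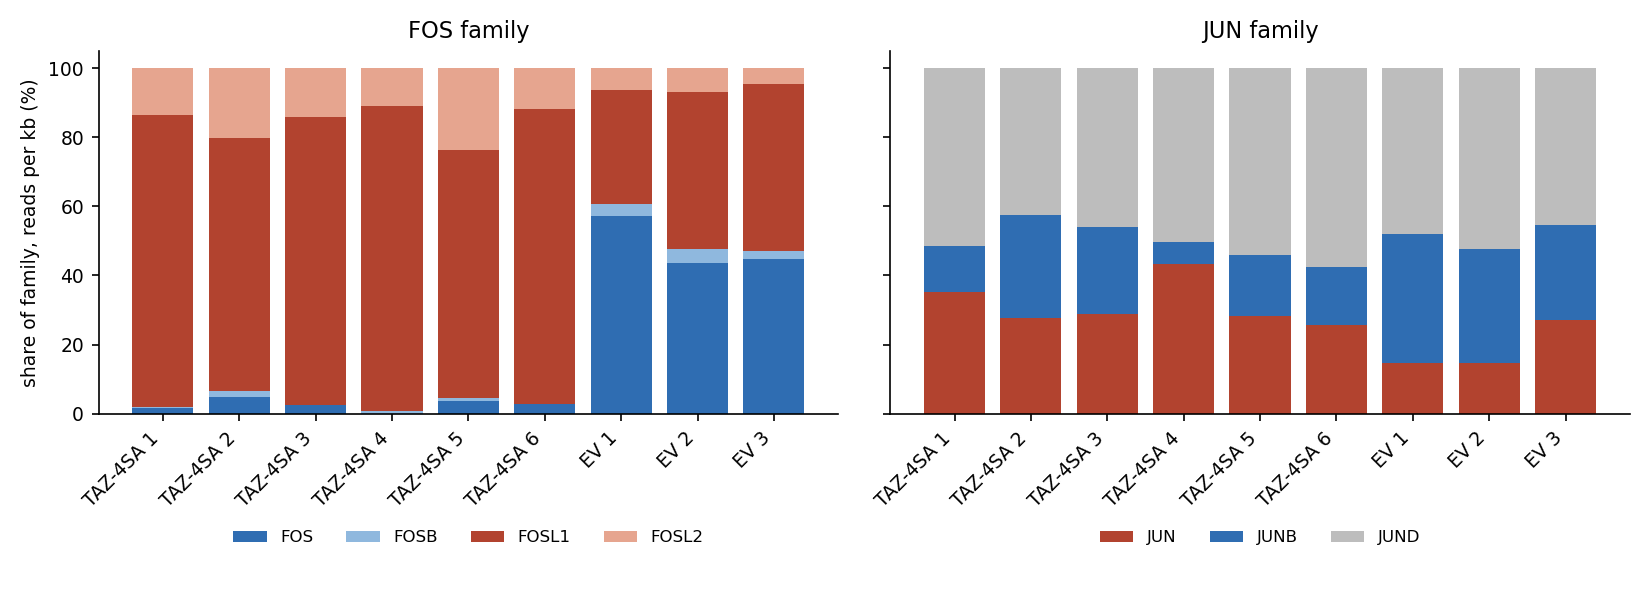
Stacked bars of each gene's share (percent, reads per kilobase of median transcript length) of FOS-family transcripts at left and of JUN-family transcripts at right, 1 bar per tumour. FOS fills 43.7% to 57.3% of the EV bars and at most 4.81% of the TAZ-4SA bars, where FOSL1 fills 71.9% to 88.3%; JUND takes 42.5% to 57.5% of every JUN-family bar.

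Among the JUN proteins, the obligate partners of the FOS family, JUN was called higher and JUND and JUNB were not called. JUN (Entrez 3725, chr1:58780791-58784047, a single-exon gene) stood at 273, 153, 225, 227, 340 and 144 CPM in TAZ-4SA tumours 1 to 6. In EV it stood at 33.1, 47.7 and 175 CPM, so that EV 3 lay above TAZ-4SA tumours 2 and 6 and EV 1 and 2 below all of them. TAZ-4SA exceeded EV by a log2 fold change of 1.73 ± 0.48 (limma adjusted p = 0.0217), a ratio of means of 2.66. The call was lost without EV 1 (1.25, limma adjusted p = 0.129), without EV 2 (1.51, adjusted p = 0.103) and without TAZ-4SA tumour 1 (1.67, adjusted p = 0.0517). Without EV 3 the difference was 2.45 (limma adjusted p = 0.00226).

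JUND (Entrez 3727, chr19:18279694-18281622, 1 exon) is the constitutive JUN protein. It lay at 78.8 to 217 CPM in TAZ-4SA, with a median of 114, and at 35.8, 57.0 and 97.9 CPM in EV. The ranges overlapped through EV 3. Its difference of 1.00 ± 0.40 on the log2 scale was not called (limma adjusted p = 0.0898, 95% interval 0.13 to 1.87), except with array weights (1.54, limma adjusted p = 0.0199).

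JUNB (Entrez 3726, chr19:12791486-12793315, 1 exon) is an immediate-early member that activates more weakly than JUN at many sites. It lay at 53.3, 85.5, 101, 16.5, 107 and 48.3 CPM in TAZ-4SA tumours 1 to 6 and at 42.8, 55.2 and 91.0 CPM in EV. TAZ-4SA tumour 4 was the lowest of the 9. The log2 fold change was -0.04 ± 0.56 with a 95% interval of -1.24 to 1.17 (limma adjusted p = 0.968), and its sign turned to 0.33 without that tumour. HOOK2 overlaps 865 bases of JUNB, and unstranded reads in that stretch cannot be assigned between them. HOOK2 averaged 13.8 ± 12.4 CPM in TAZ-4SA against 32.3 ± 9.47 CPM in EV.

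Within the JUN family, JUND averaged 50.4 ± 5.41% of transcripts in TAZ-4SA and 48.6 ± 3.54% in EV. The JUN share was 31.5 ± 6.64% and 18.9 ± 7.17%, and JUNB 18.1 ± 8.44% and 32.5 ± 4.93%. The JUN and JUNB shares of EV 3 (27.1% and 27.4%) lay inside the TAZ-4SA range. These shares also turn on the length assumed, and with no length scaling JUN led in TAZ-4SA at 54.3%, with JUND at 29.3% (35.9% and 31.5% in EV). JUN exceeded JUNB in CPM in all 6 TAZ-4SA tumours, by 1.79 to 13.7 times, and the ratio in EV tumours 1 to 3 was 0.772, 0.865 and 1.93. The JUN-family sum was 420 ± 138 CPM in TAZ-4SA against 212 ± 134 CPM in EV.

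In the ATF and JDP branch, ATF3 and ATF2 were called higher and JDP2 was not called. ATF3 (Entrez 467, chr1:212565407-212620777, 4 exons), a stress-response gene whose protein can repress as a homodimer or activate with JUN, lay at 130, 80.8, 121, 98.4, 98.5 and 91.7 CPM in TAZ-4SA tumours 1 to 6. It lay at 4.82 and 4.88 CPM in EV 1 and 2 and at 41.3 CPM in EV 3. The groups did not overlap, and the TAZ-4SA tumours were closer together (103 ± 18.5 CPM) than those of any other called member relative to the mean. ATF3 differed by 3.34 ± 0.59 on the log2 scale (limma adjusted p = 0.00219), and 4.35 without EV 3.

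ATF2 (Entrez 1386, chr2:175072259-175168203, 14 exons), which is activated by phosphorylation rather than by induction, lay at 24.0, 55.2, 57.0, 41.9, 35.3 and 83.4 CPM in TAZ-4SA tumours 1 to 6. In EV it lay at 13.9, 12.8 and 16.2 CPM, and the groups did not overlap. ATF2 differed by 1.68 ± 0.46 on the log2 scale (limma adjusted p = 0.0204), with a ratio of means of 3.46. The call did not survive the loss of any EV tumour, with limma adjusted p = 0.0865, 0.0951 and 0.0567 without EV 1, 2 and 3 and differences of 1.66, 1.60 and 1.77. It was also lost with limma-voom (1.43, adjusted p = 0.0818).

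JDP2 (Entrez 122953, chr14:75426943-75474107, 4 exons) recruits histone deacetylases and dampens AP-1 output. It lay at 24.0, 3.83, 17.7, 3.02, 24.1 and 28.7 CPM in TAZ-4SA tumours 1 to 6 and at 13.7, 17.1 and 17.9 CPM in EV. TAZ-4SA tumours 2 and 4 lay below the EV range, 3 others above it and 1 inside it. Its log2 fold change of -0.38 ± 0.92 was not called (limma adjusted p = 0.785), and it was 0.017 without TAZ-4SA tumour 4. JDP2-AS1 overlaps 713 bases of JDP2 and reached 5.39 CPM in TAZ-4SA tumour 1 and under 1 CPM in the others.

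Per kilobase of median transcript length, the EV order was led by JUND (53.8 ± 26.7 CPM per kb), FOS (52.1 ± 36.7) and FOSL1 (49.5 ± 44.8), and FOSL2 and FOSB came last. In TAZ-4SA the order was led by FOSL1 (346 ± 167 CPM per kb), ATF3 (134 ± 24.0) and JUND (105 ± 42.0), with FOS (9.77 ± 7.07) and FOSB last. In both groups the ranges of every pair of neighbours in the order overlapped. With the longest transcript FOSL1 came first in both groups, JUNB was second in EV and JUND second in TAZ-4SA.

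EV 3 was the highest of the 3 EV tumours for 10 of 10 members, where 42.8 percent of all genes were highest in it. For JDP2 this rests on the scaling of the libraries, with 277 reads in EV 3 and 294 in EV 2. It exceeded each other EV tumour by more than 1.5 times for 8 of 10 members, against 12.6 percent of all genes, and JDP2 (1.04 times) and ATF2 (1.17 times) were the exceptions. ATF3 was 8.46 times, FOSL1 3.96 times and JUN 3.67 times the next highest EV tumour. Of the other immediate-early genes 17 of 19 were more than 1.5 times as high in EV 3. MAP kinase feedback inhibitors were highest in EV 3 for 12 of 13 genes, and genes known as AP-1 targets for 7 of 20. The summed neuron markers were also highest in EV 3 among EV tumours, at 127 CPM against 29.5 and 35.9. Its heat-shock sum (2191 CPM, of which HSPA8 was 1248) lay between those of EV 1 and EV 2. By gene, 3 of 6 tested heat-shock genes were highest in EV 3, and 2 exceeded 1.5 times (DNAJB1, 1.61 times, and BAG3, 1.70 times). The part of these genes in the EV 3 values was not tested.

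**Figure D4:**
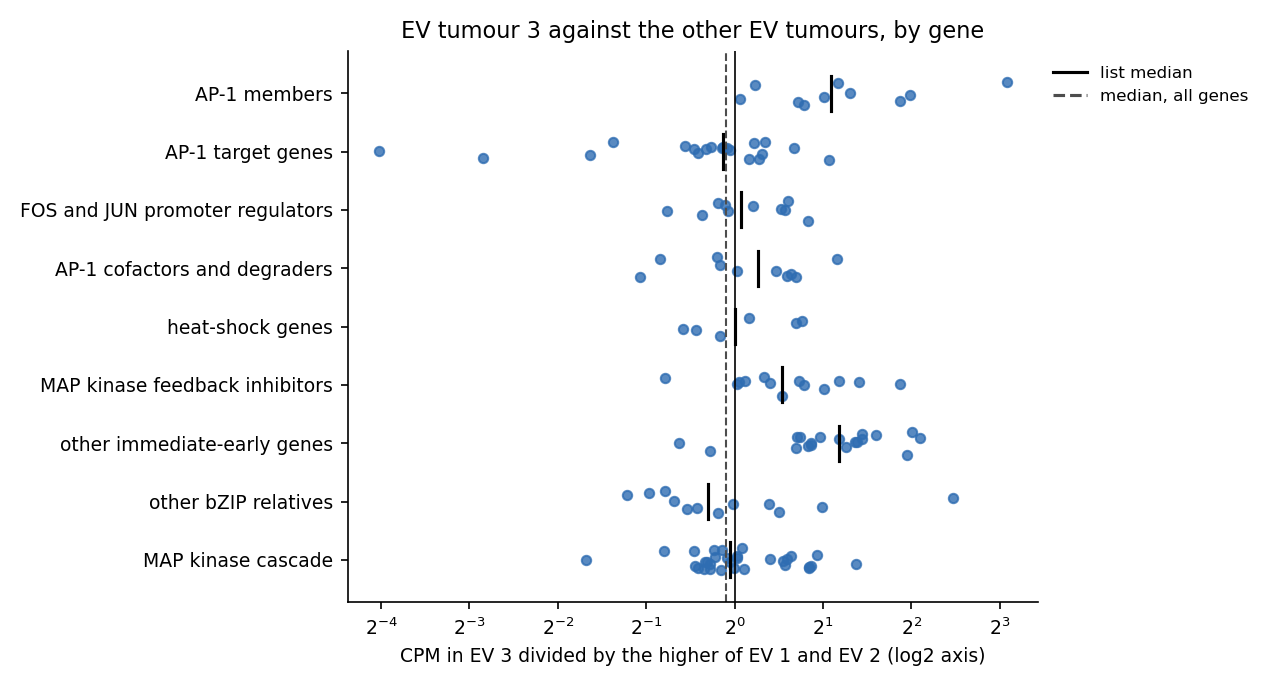
CPM in EV 3 divided by the higher of EV 1 and EV 2 (log2 axis), 1 point per gene in each list, with a bar at the list median and a dashed line at the median of all genes (0.934). The AP-1 genes run from 1.04 to 8.46 and all lie right of 1, as do most of the other immediate-early genes.

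Within TAZ-4SA, tumours 3 and 5 were each the highest of the 6 for 3 members, tumour 2 was the lowest for 4 and tumour 4 for 3. Tumour 4 was lowest for FOS, JUNB and JDP2, yet above the group median for FOSL1 and JUN. Markers of other cells were summed in each tumour as well. The summed neuron markers were 84.5 to 1248 CPM in TAZ-4SA, highest in tumours 5 and 6, and 29.5 to 127 CPM in EV, and 1 of the 5 (SYT1) was called higher. The microglia and macrophage sum over 6 genes was 54.7 to 142 CPM in TAZ-4SA and 16.1 to 25.6 CPM in EV, and most of it was CD68, which was called higher (2.33 ± 0.47, limma adjusted p = 0.00412). P2RY12, a microglial receptor, had 0 reads in TAZ-4SA and 7 in EV. CSF1R, ITGAM and PTPRC had higher means in TAZ-4SA (5.67, 5.40 and 2.07 against 1.02, 2.26 and 0.035 CPM) and were not called. These genes were listed at 0 in 2, 4 and 5 TAZ-4SA tumours, and their log2 fold changes were 0.66, -1.77 and 0.78. TYROBP, under the filter, had 16 reads in TAZ-4SA, all in tumour 6, and 1 in EV. The endothelial sum over 5 genes was 0 to 13.2 CPM and 9.48 to 14.6 CPM. Fibroblast and pericyte markers summed to 2284 to 5772 CPM in TAZ-4SA and 162 to 342 CPM in EV, mostly COL1A1. COL1A1 and LUM were called higher (LUM at 75.2 to 166 against 9.88 to 17.7 CPM), and DCN, RGS5 and PDGFRB were not called. The astrocyte sum was 7.87 to 167 CPM against 196 to 294 CPM. Their part in the AP-1 values was not tested. TAZ-4SA tumours 5 and 6 had the highest neuron sums and also the fewest recovered reads (3299325 and 3144861). Without these tumours FOSL1, FOSL2, ATF2 and ATF3 were still called and JUN was not (1.72, limma adjusted p = 0.0678). Neuron markers and depth cannot be told apart in this fit.

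The MAP kinase cascade relays growth factor and stress signals to AP-1. Of its 31 genes 4 were called higher, 2 lower and 25 not called, with a median log2 fold change of -0.91. That is 12.9 percent higher and 6.45 percent lower, beside 9.02 and 13.3 percent of all genes tested. The genes higher in TAZ-4SA were upstream kinases and 1 downstream kinase. MAP3K2, an activator of the JNK and ERK5 arms, lay at 97.0 to 319 CPM in TAZ-4SA against 21.6 to 42.6 CPM in EV (log2 fold change 2.51 ± 0.41, limma adjusted p = 0.00120). MAP3K1, an activator of JNK, lay at 63.3 to 96.3 CPM against 13.2 to 36.5 CPM (2.07 ± 0.39, adjusted p = 0.00303). RPS6KA3, the ERK-activated kinase RSK2, lay at 22.3 to 48.3 CPM against 9.16 to 9.74 CPM (1.97 ± 0.46, limma adjusted p = 0.00985). MAP2K7, a JNK kinase, was lower at 20.5 to 63.0 CPM against 106 to 175 CPM (-1.55 ± 0.40, limma adjusted p = 0.0158), a call lost without EV 2 (adjusted p = 0.0623) or EV 3 (adjusted p = 0.0966). MAP3K3 was called lower (-1.11 ± 0.37, limma adjusted p = 0.0486) and not after leaving out any 1 of TAZ-4SA tumours 1, 4 and 6 or of the EV tumours (adjusted p = 0.0606 to 0.230). The fourth gene called higher was MAP3K7, the kinase TAK1.

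Transcription factors that act on the FOS and JUN promoters numbered 10, and 2 were called higher, 0 lower and 8 not called (median log2 fold change 0.82). The share higher was 20 percent, beside 9.02 percent of all genes. Without TAZ-4SA tumour 3 the number higher was 4. ELK1, ELK3 and ELK4 of this list are ternary complex factors, which bind beside SRF. ELK3 lay at 134 to 259 CPM in TAZ-4SA and at 26.2 to 30.9 CPM in EV (2.69 ± 0.31, limma adjusted p = 0.000123). ELK4 lay at 73.3 to 220 CPM against 35.1 to 68.3 CPM (1.34 ± 0.40, limma adjusted p = 0.0296), and it was not called without TAZ-4SA tumour 1 or 4 or without EV 1 or 2 (adjusted p = 0.0566 to 0.144). ELK1 lay lower without overlap, at 5.55 to 65.6 CPM against 84.1 to 99.4 CPM, and was not called (-1.91 ± 0.75, limma adjusted p = 0.0845). SRF was not called either (-0.47 ± 0.34).

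Other immediate-early genes are induced by the same signals as FOS and JUN. Of 20 genes 19 were tested (IER3 was under the filter), and 3 were called higher, 1 lower and 15 not called, with a median of -0.61. The shares were 15.8 percent higher and 5.26 percent lower, beside 9.02 and 13.3 percent of all genes. Without TAZ-4SA tumour 5 the number lower was 2. KLF6, a zinc-finger factor, lay at 152 to 361 CPM in TAZ-4SA and at 22.6 to 112 CPM in EV (2.54 ± 0.47, limma adjusted p = 0.00270; 3.26 without EV 3). GADD45B, a stress sensor that acts on MAP kinase signalling, lay at 39.2 to 162 CPM against 9.13 to 31.4 CPM (2.37 ± 0.52, limma adjusted p = 0.00717). PPP1R15A, which restores translation after stress, was called higher (1.76 ± 0.45, limma adjusted p = 0.0151) but not without EV 1 or EV 2 (adjusted p = 0.0833 and 0.0800). NR4A1, a nuclear receptor induced along with FOS, lay at 7.32 to 53.0 CPM in TAZ-4SA and at 434 to 680 CPM in EV (-4.43 ± 0.53, limma adjusted p = 0.000161). EGR1, a further FOS-like early gene, was not called, at 30.9 to 238 CPM in TAZ-4SA against 188 to 966 CPM in EV (-1.59 ± 0.62, limma adjusted p = 0.0858).

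Feedback inhibitors of MAP kinases are themselves induced by the pathway. Of 13 tested genes 1 was called higher, 3 lower and 9 not called (median -0.38), with 2 higher without TAZ-4SA tumour 2. In the reported fit that is 7.69 percent higher and 23.1 percent lower, beside 9.02 and 13.3 percent of all genes. DUSP8 and DUSP14 were not analysed here. DUSP1, a nuclear phosphatase of stress kinases, lay at 67.1 to 237 CPM in TAZ-4SA and at 14.1 to 33.1 CPM in EV (2.55 ± 0.43, limma adjusted p = 0.00157). DUSP6, the cytoplasmic phosphatase of ERK, lay at 21.6 to 50.8 CPM against 127 to 294 CPM (-2.54 ± 0.39, limma adjusted p = 0.000928). SPRY4, an inhibitor of receptor tyrosine kinase signalling, lay at 0.202 to 46.8 CPM against 592 to 758 CPM (-5.54 ± 1.29, limma adjusted p = 0.0108). The SPRY4 call was lost without EV 1 (adjusted p = 0.0643) or EV 2 (adjusted p = 0.0586), and the difference was -4.46 without TAZ-4SA tumour 2. DUSP2 was listed at 0 in 5 TAZ-4SA tumours and lay at 7.27 to 32.8 CPM in EV (limma adjusted p = 0.00939; 0.0576 without EV 3).

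Genes known as AP-1 targets had the most calls of the lists. Of 20 tested genes 11 were called higher, 1 lower and 8 not called, with a median log2 fold change of 1.60. Called higher were 55 percent and lower 5 percent, beside 9.02 and 13.3 percent of all genes. The list was chosen with earlier results of these data known. PLAU and EREG were under the filter, and MMP3, MMP10, MMP13, CSF2 and AREG were not analysed here. The targets are also known to respond to TEAD and other factors, so that their levels are not a readout of AP-1 alone. F3, tissue factor, lay at 123 to 323 CPM in TAZ-4SA against 3.43 to 4.97 CPM in EV (5.50 ± 0.39, limma adjusted p = 2.33e-06). LAMB3, a laminin chain, lay at 121 to 318 CPM against 6.00 to 9.30 CPM (4.66 ± 0.38, limma adjusted p = 7.66e-06). CCND1 (cyclin D1), IL6, IL11, PLAUR, HMGA1, CD44 and EZR were also called higher; CD44 is also on the glioblastoma marker list. TIMP1, an inhibitor of matrix metalloproteinases, was lower at 99.7 to 242 CPM against 444 to 550 CPM (-1.53 ± 0.31, limma adjusted p = 0.00412). MMP1, a collagenase long used as an AP-1 reporter, was not called (limma adjusted p = 0.696). It was at 16.6 CPM in TAZ-4SA tumour 4 and under 0.5 CPM in each of the other 8 tumours.

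**Figure D5:**
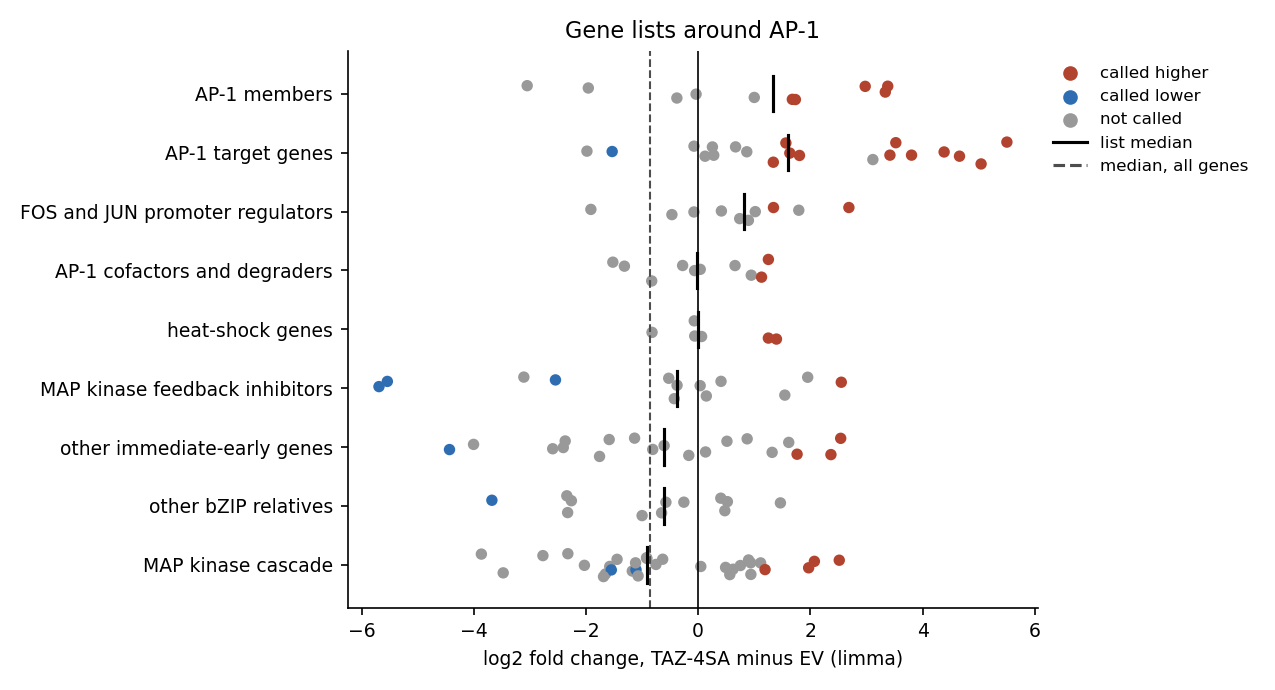
Log2 fold change (TAZ-4SA minus EV, limma) of every tested gene in each list, 1 point per gene, red where called higher and blue where called lower, with a bar at the list median and a dashed line at the median of all genes (-0.85). The AP-1 genes and their targets have medians of 1.34 and 1.60, and the other lists lie between -0.91 and 0.82.

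The remaining lists held few genes, and over all genes 9.02 percent were called higher and 13.3 percent lower. The shares were 0 percent higher and 8.33 percent lower for other leucine-zipper relatives, and 20 and 0 percent for cofactors and degraders. Of the tested heat-shock genes, 33.3 percent were called higher and 0 percent lower. Of 12 other leucine-zipper relatives 0 were called higher, 1 lower and 11 not called (median -0.61), with 1 higher without TAZ-4SA tumour 2 or without tumour 3. MAFA, the lower one, was at 2.61 ± 0.192 CPM in EV and listed at 0 in 5 TAZ-4SA tumours (limma adjusted p = 0.0271, and 0.0966 to 0.111 with any EV tumour left out). BATF3, which can stand in for FOS as a JUN partner, was not called (-2.34 ± 1.53). Of 10 cofactors and degraders of AP-1 2 were called higher and 8 not called (median -0.01), with 1 lower without TAZ-4SA tumour 2 or without tumour 5. EP300, the acetyltransferase that FOS and JUN recruit, lay at 193 to 289 CPM against 86.2 to 143 CPM (1.13 ± 0.26, limma adjusted p = 0.00921; 0.0610 without EV 1 and 0.0824 without EV 2). ITCH, a ubiquitin ligase for JUN and JUNB, was called higher (1.25 ± 0.38, limma adjusted p = 0.0346) but not without TAZ-4SA tumour 1, 4 or 6 or EV 1 or 2 (adjusted p = 0.0622 to 0.155). Of 6 tested heat-shock genes HSPH1 and HSP90AA1 were called higher and 4 were not called (median 0.00). Both of those calls were lost without EV 1 (limma adjusted p = 0.0689 and 0.0756), that of HSPH1 also without EV 3 (0.0651) and that of HSP90AA1 without EV 2 (0.0673).

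Genes whose pattern over the 9 tumours was closest to 3 members were found among 12081 genes averaging 5 CPM or more, by the root mean square difference of centred log2 values. For JUN they were AMOTL2 (0.321), EPHA2 (0.377) and VCPIP1 (0.399), against a median of 1.64 over all these genes. AMOTL2, an angiomotin known as a target of TAZ, lay at 299 to 987 CPM in TAZ-4SA and at 92.6, 91.6 and 275 CPM in EV. It shared with JUN the high value in EV 3. For FOSL1 they were PIM1 (0.428), MED13L (0.496) and NUAK1 (0.513), against 2.13. PIM1, a serine/threonine kinase, lay at 112, 51.2, 167, 142, 184 and 88.9 CPM in TAZ-4SA tumours 1 to 6 and at 12.1, 11.5 and 54.0 CPM in EV, with the lowest TAZ-4SA value in tumour 2 and the highest EV value in EV 3, as in FOSL1. For FOS they were NDUFA7 (0.659), DAGLA (0.696) and PCGF1 (0.699), against 2.66. These 3 had 0 reads or 1 read in TAZ-4SA tumour 4, where FOS had none. Highs and lows that the genes of this paragraph share with a member follow from the way they were picked.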

How the data were processed

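RNA from 6 TAZ-4SA and 3 EV tumours was sequenced from full-length SMART-Seq and Nextera XT libraries, per the labels' protocols, a chemistry that does not keep strand. HISAT2, edgeR and GRCh38 appear, without roles, in the submitters' processing notes. How reads were counted, against which annotation, and whether mouse reads were removed is not given in the sources used here. Values were deposited by the authors as log2 CPM, a unit read from the values. Their lowest value, -2.786, is 0.145 CPM, and with that prior removed 100% of values under 5000 reads were whole within 0.1 read.

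The test was limma 3.58.1 (R 4.3.3) with trend and robust steps on the deposited log2 values, for genes averaging 1 CPM or more (prior included), adjusted over all of them. It was tested on simulated counts with the same spread in both groups. That setting does not cover the unequal spread and zeros of these libraries. Tables were made with Python 3.11.15, pandas 2.3.3 and numpy 2.4.6. No 2 tumours of a group agreed within sampling noise. Transcript lengths and overlaps came from GENCODE 29 and RefSeq. Intervals of fold changes are at 95% and rest on the spread between tumours.

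The members and lists were chosen with earlier results of these data known. Named genes were the 10 members, WWTR1, up to 3 called genes per list and direction with the smallest p, and the 3 genes closest in pattern to FOS, JUN and FOSL1; a few of these are not reported here. BATF3, EGR1, SRF, ELK1, MMP1, MAP3K7 and the other called targets were named after their values were seen. Alternatives were quantile normalization, median-of-ratios scaling, pseudocounts of 0.5 and 2 CPM, a filter at 10 CPM or none, omission of the robust step, array weights, limma-voom, a replicate block, each tumour left out, and, chosen after seeing the data, 3 other sets of tumours.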

Additional observations from a re-analysis of the deposited data

Results flagged for a closer look

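In each of the 10 members, the highest and lowest of the 6 TAZ-4SA tumours was checked for a gap to its neighbour that is large against the whole range (Dixon's test on the log2 scale). Chance alone marks about 1 in 20 such groups, and 2 of 10 were marked. FOS in TAZ-4SA tumour 4, at 0 reads, had a gap of 0.766 of the range. FOSL1 in TAZ-4SA tumour 2, at 113 CPM where the other 5 lay at 378 CPM or more, had a gap of 0.645. TAZ-4SA tumour 2 had 7365 genes at 0 reads and tumour 4 had 6573.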

How the results depend on the processing

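Of 965 values for 44 genes under 22 alternatives, 841 kept their direction and side of the threshold, 82 lost a call, 30 gained one and 12 turned sign. The limits lie in 3 EV tumours, in genes listed at 0 in TAZ-4SA, in unstranded reads and in mouse cells whose reads are not tracked. Members called higher, 5 in the reported fit, numbered 3 to 5 with 1 tumour left out and 3 without TAZ-4SA tumours 2, 3 and 4. Members called lower, 0 in the reported fit, numbered 0 with 1 tumour left out, and 1 (FOS) with a pseudocount of 2 CPM, with array weights, with limma-voom and without TAZ-4SA tumours 2, 3 and 4. Over the 8 lists, 25 genes were called higher and 8 lower. These counts were 15 to 30 and 4 to 10 with 1 tumour left out, 40 and 25 with array weights, and 20 lower with limma-voom, 14 lower with tumours 1 to 3 of each group and 16 lower without TAZ-4SA tumours 5 and 6. Over all genes, 1405 higher and 2079 lower became 2531 and 5630 with array weights, 1167 and 4090 with limma-voom, 1507 and 3384 with no filter, and 1392 and 967 with the filter at 10 CPM. They became 827 and 872 without EV 1, 799 and 852 without EV 2, and 1029 and 990 without EV 3. The median log2 fold change of all genes was -0.15 with quantile normalization and -0.93 with median-of-ratios scaling, and the share of calls that were higher moved with it, at 1920 higher and 1624 lower under quantile normalization.

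The replicate block was fitted on tumours 1 to 3 of each group, which share numbers. Deviations from the group means of same-numbered tumours correlated at -0.000583, -0.0322 and -0.00873. Those of tumours with unlike numbers correlated at -0.0466 to 0.0486. The labels do not say what the numbers mean. With 3 tumours per group these correlations cannot tell whether same-numbered tumours were paired. No EV tumour correlated best with the TAZ-4SA tumour of its number. With the block, 2 members (FOSL1, FOSL2) and 10 genes of the 8 lists were called higher, and 562 of all genes higher and 2159 lower. The same 6 tumours with no replicate block also gave 2 members (FOSL2, ATF3), with 1244 higher and 2798 lower. The JUNB log2 fold change was 0.36 in both fits.

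Signs turned for 2 members that are not called. JUNB was 0.043 with quantile normalization, 0.18 with array weights, 0.12 without TAZ-4SA tumours 2, 3 and 4, and -0.28 to 0.33 with 1 tumour left out, positive without TAZ-4SA tumour 4 or 6 or EV 3. JDP2 was 0.064 with quantile normalization, 0.11 with array weights, -0.62 to 0.017 with 1 tumour left out, positive without TAZ-4SA tumour 4, and 0.66 without TAZ-4SA tumours 2, 3 and 4. The cause was not tested. With the longest transcript, mean shares were 33.0% (FOS), 4.98% (FOSB), 52.9% (FOSL1), 9.09% (FOSL2), 39.6% (JUNB) and 37.5% (JUND) in EV, and 38.6% (JUN) and 39.3% (JUND) in TAZ-4SA. With no length scaling they were 29.7% (FOS), 7.79% (FOSB), 25.3% (FOSL2), 35.9% (JUN) and 31.5% (JUND) in EV, and 51.4% (FOSL1), 46.5% (FOSL2), 54.3% (JUN) and 29.3% (JUND) in TAZ-4SA.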
